A study of Rattus norvegicus with 18 samples.

Results

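Of 32883 Ensembl rat gene IDs measured in mesenteric resistance artery perivascular adipose tissue (MRPVAT), 260 reached at least 10 FPKM in 1 animal, the HFD female G75FHF5, and stayed under 0.5 FPKM in each of the other 17 animals. FPKM are by name the fragments of a gene per kilobase of its length and per 1000000 fragments, though the exact formula used was not given. The library totals recovered from them below are reads in genes. The IDs were selected on these same values, so their levels are a description and were not tested. They make up 1.14% of the 22851 IDs above 0 in at least 1 library. "Only in G75FHF5" is a matter of level, because 255 of the 260 IDs had at least 1 read in another library and 5 were at 0 in all 17.

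The libraries came from Dahl S rats, a salt-sensitive strain that becomes hypertensive on a high-fat diet (HFD), kept from weaning on a control diet (CD) or the HFD for 24 weeks before the tissue was taken. The groups were 4 CD females, 5 HFD females, 5 CD males and 4 HFD males, with 1 library per animal, and the labels name no engineered allele. The paper describes 5 animals per group, so its CD females and HFD males are not complete here. Sex and diet were read from the sample titles, since the tags for sex or treatment contradict the titles for many animals. For G75FHF5 the tags and the title give the same sex and diet.

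MRPVAT is the fat that surrounds the small mesenteric arteries, the vessels that set much of the resistance to blood flow. It is a largely white fat, built of adipocytes that store triglyceride, with a stromal vascular fraction of preadipocytes, endothelial cells, mural cells and immune cells between them. RNA of the whole tissue pools all of these cells, so fewer cells of a type and less RNA per cell cannot be told apart. The table gives IDs without gene names, and 0 of the 32883 IDs could be matched to a symbol in the tables used here. Which tissue or cell type the 260 IDs belong to could therefore not be read from them, and the labelled tissue could not be checked against its defining markers.

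G75FHF5 stood apart from the rest of the series. It had the fewest reads in genes, 14547762 against 22039261 to 55148275 in the other libraries, and the lowest FPKM sum, 603078 against 621664 to 720116. It also had the most IDs at 0.5 FPKM or more, 14733 against 11865 to 14275. Over 18215 IDs that reached 0.5 FPKM in some library, its median Pearson correlation with the other libraries was 0.701 on the log2(FPKM + 0.5) scale. In the other 17 libraries the median was between 0.878 and 0.969. These correlations are across genes, which are not independent replicates.

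The 260 IDs lay at moderate levels in G75FHF5, and many of them shared the total. Their FPKM ranged from 10.1 to 317 with a median of 22.4, and the middle of the distribution, from the lower to the upper quartile, spanned 14.7 to 45.4. There were 110 IDs between 10 and 20 FPKM, 91 between 20 and 50, 39 between 50 and 100, and 20 at 100 or more. No single ID dominated, though the limit of 0.5 FPKM left out the highest of the IDs raised in G75FHF5, which are described below. The 10 highest held 21.3% of the FPKM of the set, the 20 highest 33.2% and the 50 highest 54.2%. The highest of the set ranked 211 among all IDs in G75FHF5, in which the top ID had 21683 FPKM. Of the 6772 IDs at 10 FPKM or more in that library, the set was 3.84%.

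**Figure D1:**
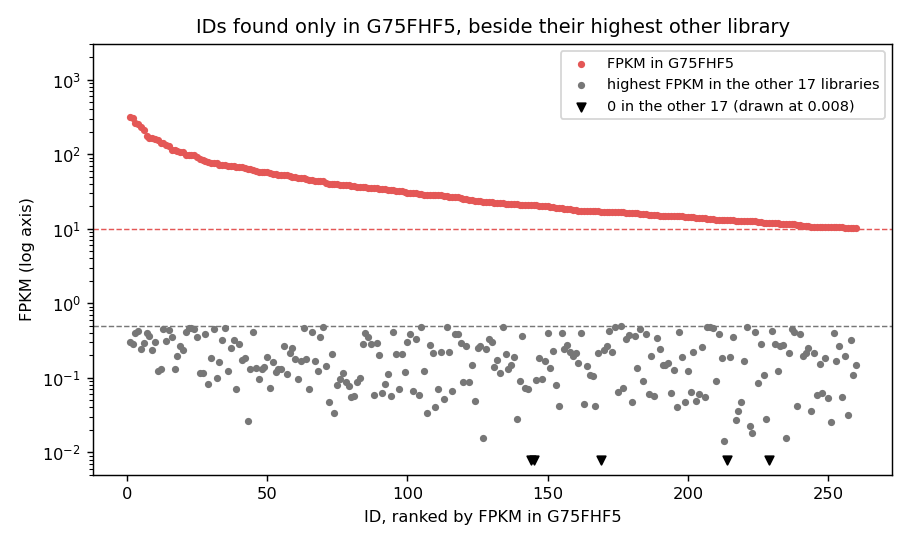
FPKM (log axis) of the 260 IDs, ranked by their value in G75FHF5 (red), with the highest value of the same ID in any of the other 17 libraries (grey) and the 10 and 0.5 FPKM limits of the selection as dashed lines. The red points fall from 317 to 10.1 FPKM, while the grey points stay under 0.5 FPKM along the whole ranking, and the 5 IDs at 0 in the other 17 libraries are drawn as triangles.

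In the other animals, the highest value of an ID in any library had a median of 0.174 FPKM. It was under 0.1 FPKM for 79 IDs and at 0.25 FPKM or more for 89. For the 255 IDs seen elsewhere, G75FHF5 was between 25.6-fold and 2397-fold above the highest other library, with a median of 195-fold. Selection fixes that this ratio exceeds 20, since 10 FPKM stands against a limit of 0.5. The set has no sharp edge. The lowest ID inside had 10.1 FPKM in G75FHF5 and the highest ID kept out by the minimum had 9.90, with 20 IDs between 10 and 11 FPKM and 28 between 9 and 10. At the other limit, the last ID inside reached 0.499 FPKM in another library and the first one outside reached 0.507.

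Reads were recovered from the spacing of the FPKM values, and they show that the IDs rest on many fragments. The set held 401085 reads in G75FHF5, or 2.76% of the reads in genes (95% exact Clopper-Pearson interval 2.75% to 2.77%), and 1.74% of the FPKM sum. Intervals here cover counting error only and treat reads as independent. PCR copies of a fragment are not independent molecules, so the intervals may be too narrow. For the 255 IDs with at least 1 other library above 0, the reads in G75FHF5 ranged from 67 to 11855 with a median of 968, and 2 IDs had fewer than 100. For the 5 IDs at 0 elsewhere, at 11.8 to 20.6 FPKM in G75FHF5, reads are known only as a lower bound. These 5 held 0.789% of the FPKM of the set.

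The IDs were longer than the other IDs of the library at the same minimum. The recovered length had a median of 2424 bases in the 255 IDs, with quartiles of 1704 and 3701 bases and a range of 288 to 9728. The other 6512 IDs at 10 FPKM or more in G75FHF5 had a median of 1884 bases, with quartiles of 1243 and 2848. Over the 21008 IDs above 0 in at least 2 libraries, whose lengths are resolved, the median was 1783 bases. Length was not part of the rule, though FPKM are scaled by it, and its part in the selection was not tested.

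Across the animals, the reads of the 260 IDs separated G75FHF5 from every other library by more than 2 orders of magnitude. As reads per 1000000 reads in genes (RPM), they came to 27570 RPM in G75FHF5 (95% interval 27486 to 27655). In the other HFD females they came to 60.4 RPM in G73FHF1, 58.2 in G73FHF2, 49.3 in G73FHF3 and 63.7 in G75FHF1. The set was thus 433-fold to 559-fold higher in G75FHF5 than in the 4 animals of its own sex and diet, which lay close together. Selection fixes the direction of this gap for every ID, so its size is a description. The CD females had 59.6 RPM in G73FC3, 69.2 in G73FC4, 31.9 in G75FC4 and 40.6 in G75FC5. The CD males had 53.8 in G74MC4, 44.8 in G74MC5, 34.3 in G76MC3, 43.4 in G76MC4 and 28.3 in G76MC5. The HFD males had 76.4 in G74MHF2, 42.6 in G74MHF3, 48.4 in G76MHF1 and 56.3 in G76MHF2. Apart from G75FHF5 the groups overlapped, and the highest of these 17 libraries was G74MHF2 and the lowest G76MC5. The code of G75FHF5 begins with G75, as do those of G75FHF1, G75FC4 and G75FC5, but the number in the title is G73 for G75FC5 and G75 for G73FHF3, so which animals share it is uncertain. The values of G75FHF1, G75FC4, G75FC5 and G73FHF3 lay inside the range of the other libraries, and that of G75FHF5 did not.

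**Figure D2:**
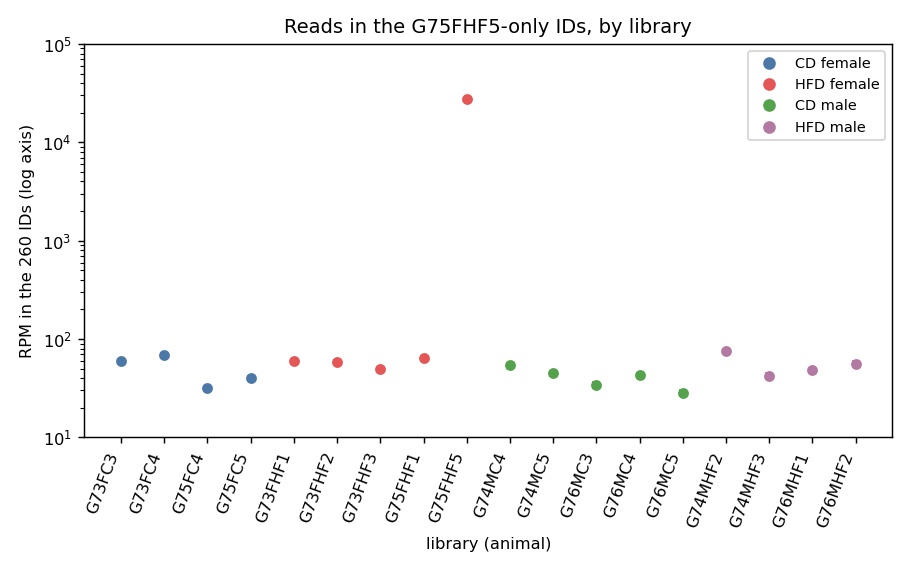
RPM (log axis) in the 260 IDs for each of the 18 libraries, coloured by group, with 95% exact intervals that are mostly smaller than the points. G75FHF5 stands at 27570 and the other 17 libraries lie between 28.3 and 76.4, with the groups overlapping.

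The low reads in the other animals were spread over many IDs. Between 119 IDs (in G76MC3) and 222 IDs (in G74MC4) of the 260 were above 0 in a library, and between 70 and 181 had at least 3 reads. More depth did not bring more IDs in every case, as the deepest library, G75FC4 with 55148275 reads, had 137 above 0. An ID was seen in a median of 12 of the 17 libraries. There were 78 IDs in 1 to 8 libraries, 136 in 9 to 16 and 41 in all 17. In total the 17 libraries held 26554 reads of the set, and the highest count for 1 ID in 1 library was 186 reads. The 10 IDs with the most of these reads held 23.6% of them, and none of these 10 was among the 10 highest in G75FHF5. The ID with the most, 1314 reads over the 17 libraries, had 13.5 FPKM in G75FHF5.

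The order of the 260 IDs in G75FHF5 was at most weakly correlated with their order in the other libraries. Across the IDs, Spearman's rho between G75FHF5 and another library was between -0.06 and 0.34, with a median of 0.14. Between pairs of the other 17 libraries, rho was between 0.30 and 0.68 over 136 pairs, with a median of 0.50. The IDs of a library share its depth and the values were limited by the selection, at 0.5 FPKM from above in the other libraries and at 10 FPKM from below in G75FHF5. In each of the other libraries only 70 to 181 of the 260 IDs had at least 3 reads. Ties at 0 and very small counts therefore enter the ranks, and these correlations are given as a description. The library with the highest value of an ID after G75FHF5 was G74MHF2 for 57 IDs, G73FC3 for 27 and G74MC4 for 25, and each of the others for 4 to 22.

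The 2 highest IDs of the set show the pattern in each animal. ENSRNOG00000018039 had 317 FPKM in G75FHF5, from 6114 reads. In the other HFD females it was at 0 in G73FHF1, G73FHF2 and G73FHF3 and at 0.0281 FPKM in G75FHF1. In the CD females it was at 0 in G73FC3, 0.124 in G73FC4, 0.0410 in G75FC4 and 0.0169 FPKM in G75FC5. In the CD males it had 0.300 FPKM in G74MC4, 0.0294 in G74MC5 and 0.0852 in G76MC3, and was at 0 in G76MC4 and G76MC5. In the HFD males it had 0.102 FPKM in G74MHF2 and 0.123 in G76MHF1, and was at 0 in G74MHF3 and G76MHF2. G75FHF5 was thus 1057-fold above the highest other library, whose value rests on 12 reads. For the 8 libraries at 0, the limit that 3 reads allow was 0.0460 to 0.103 FPKM.

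ENSRNOG00000012906 had 301 FPKM in G75FHF5, from 10333 reads, and was seen in 16 of the other 17 libraries. In the other HFD females it had 0.0114 FPKM in G73FHF1, 0.0820 in G73FHF2, 0.188 in G73FHF3 and 0.142 in G75FHF1. In the CD females it had 0.231 FPKM in G73FC3, 0.139 in G73FC4, 0.0462 in G75FC4 and 0.123 in G75FC5. In the CD males it had 0.225 FPKM in G74MC4, 0.116 in G74MC5, 0.0604 in G76MC4 and 0.0481 in G76MC5, and was at 0 in G76MC3, where 3 reads would be 0.0480 FPKM. In the HFD males it had 0.287 FPKM in G74MHF2, 0.0162 in G74MHF3, 0.0864 in G76MHF1 and 0.129 in G76MHF2. The 17 libraries overlapped between groups, and G75FHF5 was 1052-fold above the highest of them.

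No other library held IDs of its own in this way. The same rule, applied to each of the other 17 libraries in turn, found 0 IDs in every one. It also found 0 when G75FHF5 was left out of the libraries that had to stay under the limit. The limits were set for G75FHF5, so this is a description of the rule's yield and not a test.

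The limit of 0.5 FPKM left out the highest of the IDs that were raised in G75FHF5. With a relative limit in its place, at least 10 FPKM and at least 8-fold above the highest other library, 669 IDs were found in G75FHF5 (2.93% of the 22851 IDs) and at most 1 in any other library. All 260 IDs are among the 669, of which they make up 38.9% by number and 10.9% by FPKM. Of the 409 further IDs, 40 reached 0.5 FPKM in 1 other library and 116 reached it in all 17. They had a median of 42.0 FPKM in G75FHF5, 119 were at 100 FPKM or more (against 20 of the 260), and 13 were at 1000 FPKM or more. The highest was the second highest ID of the library at 20005 FPKM, and had 9.05 to 47.2 FPKM in the other animals. Together the 669 IDs held 15.97% of the FPKM and 20.8% of the reads of G75FHF5, and 0.125% to 0.187% of the FPKM in the other libraries.

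**Figure D3:**
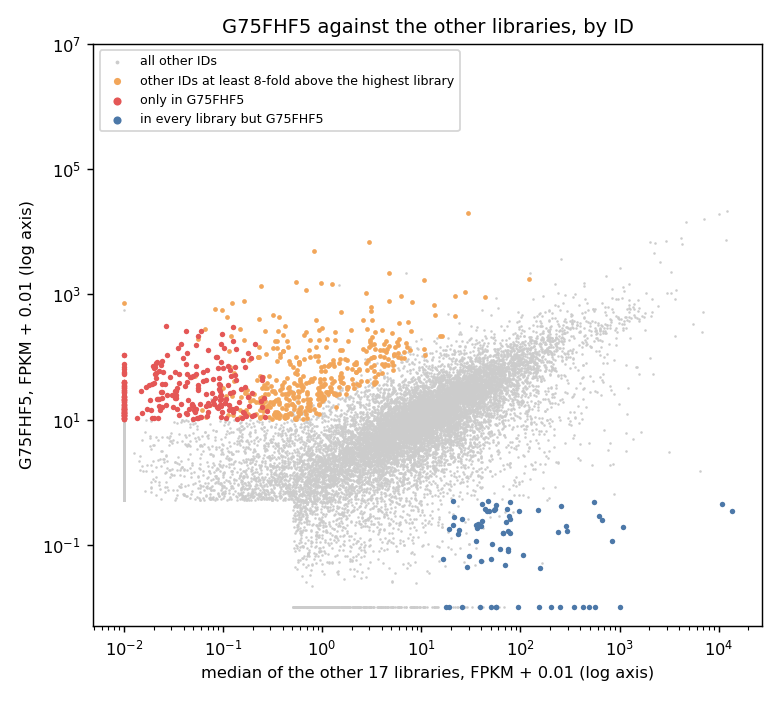
Each point is a gene ID with at least 0.5 FPKM in G75FHF5 or in the median of the others, placed by the median of the other 17 libraries and by its value in G75FHF5 (both FPKM + 0.01, log axes). The 260 IDs (red) lie at the upper left, the other 409 of the 669 IDs (orange) extend above them to 20005 FPKM, and the 72 IDs found in every library but G75FHF5 (blue) lie along the bottom.

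G75FHF5 also lacked IDs that all other animals had. At 10 FPKM or more in each of the other 17 libraries and under 0.5 FPKM in G75FHF5, there were 72 IDs (0.315% of the 22851). The same limits gave 1 ID for G75FC5 and 0 for each of the other 16. Of the 72 IDs, 16 were at 0 in G75FHF5, and the set summed to 12.5 FPKM there, from 425 reads. In the other libraries it held 3.07% to 8.16% of the FPKM, and 22 of the IDs had a median of 100 FPKM or more. The share was 3.15% to 5.29% in CD females, 3.07% to 6.78% in the other 4 HFD females, 5.68% to 8.16% in CD males and 5.12% to 6.38% in HFD males. The 72 IDs were shorter than the 260, with a median of 1621 bases and quartiles of 1123 and 2517.

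The 2 of these 72 IDs with the highest median in the other animals were named after their values were seen. ENSRNOG00000010805 had 0.335 FPKM in G75FHF5, from 3 reads. In the other HFD females it had 7164 FPKM in G73FHF1, 10113 in G73FHF2, 21554 in G73FHF3 and 6329 in G75FHF1. Its range was 6154 to 11016 FPKM in CD females, 13647 to 19906 in CD males and 12846 to 20295 in HFD males. ENSRNOG00000033564 had 0.434 FPKM in G75FHF5, from 4 reads. In the other HFD females it had 1685 FPKM in G73FHF1, 1542 in G73FHF2, 11718 in G73FHF3 and 2093 in G75FHF1. Its range was 1505 to 19248 FPKM in CD females, 10868 to 18461 in CD males and 9367 to 11557 in HFD males. Every animal but G75FHF5 was thus at 1505 FPKM or more for both IDs.

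**Figure D4:**
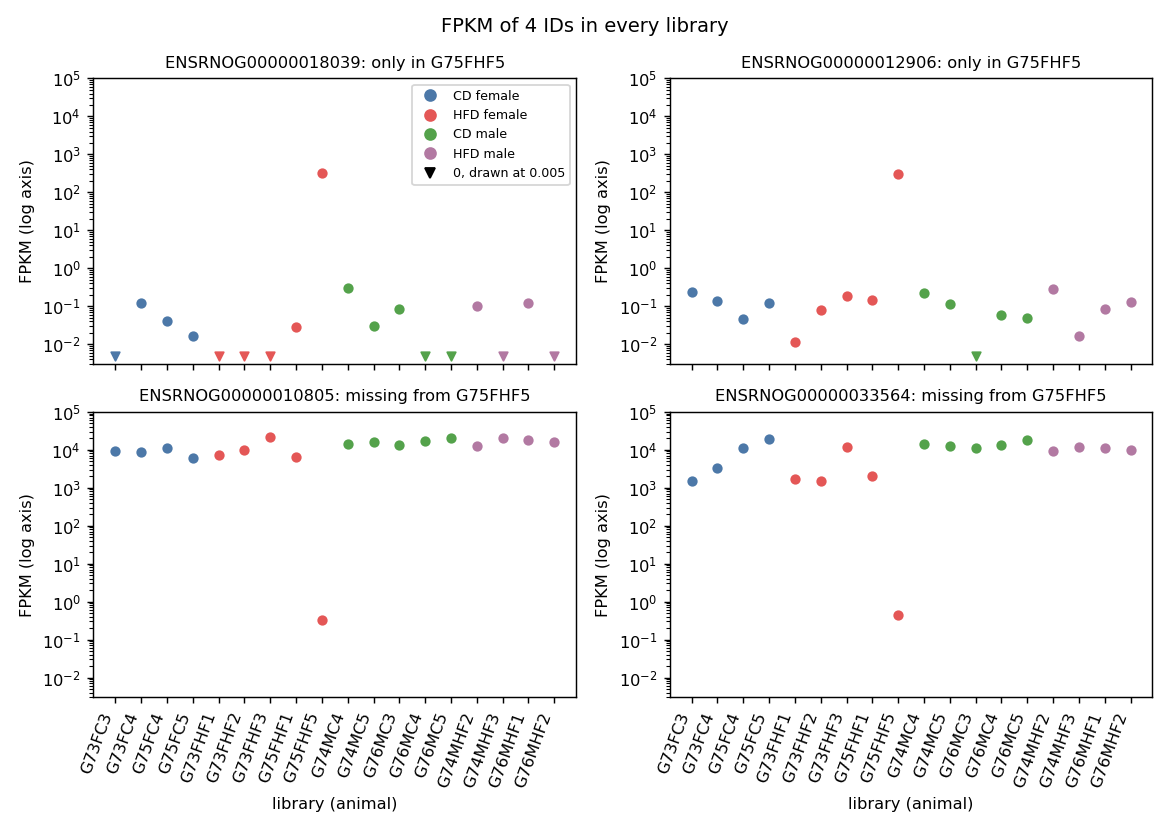
FPKM (log axis) in each of the 18 libraries, coloured by group, of the 2 highest IDs found only in G75FHF5 (upper panels) and the 2 highest IDs found in every library but G75FHF5 (lower panels), with values of 0 drawn as triangles at the bottom. In the upper panels G75FHF5 is at 317 and 301 FPKM and the others at 0.300 or less, and in the lower panels G75FHF5 is at 0.335 and 0.434 FPKM and the others at 1505 or more.

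The distance of G75FHF5 from the other libraries did not rest on the 260 IDs alone. Its median correlation of 0.701 became 0.733 over the 17955 IDs that remain without the 260. Without the 72 IDs as well it was 0.748, and without all 669 and the 72 it was 0.794, still below the lowest other library, G75FC5 at 0.875. The correlations of the other 17 libraries changed little when these IDs were left out, to between 0.875 and 0.968 without the 669 and the 72.

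**Figure D5:**
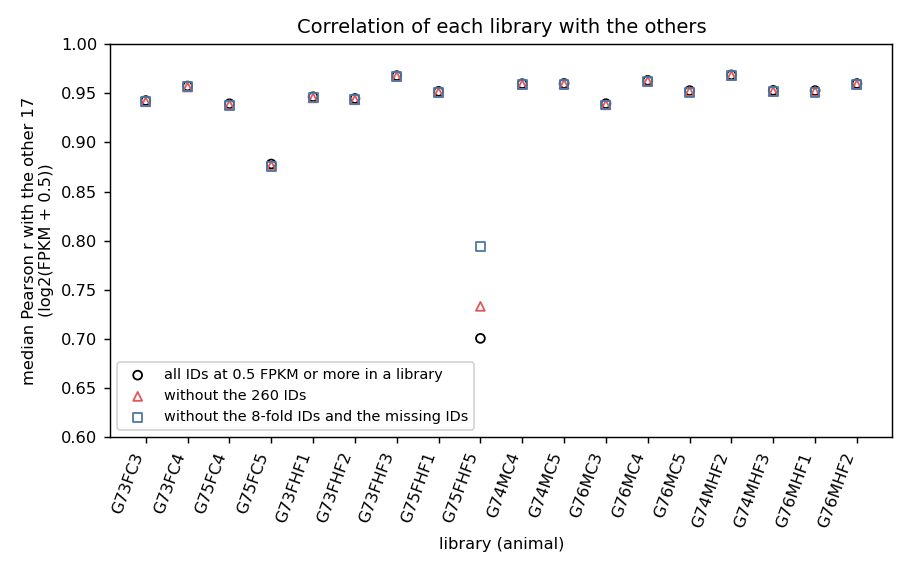
Median Pearson correlation of each library with the other 17, on the log2(FPKM + 0.5) scale, over all 18215 IDs (circles), without the 260 IDs (triangles) and without the 669 and the 72 IDs (squares), with a vertical axis that starts at 0.6. G75FHF5 moves from 0.701 to 0.733 and 0.794 and stays the lowest, and the symbols of the other libraries nearly coincide.

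Because the IDs were at or near 0 in 17 of 18 animals, their mean in a group depended on whether G75FHF5 was counted. Over the 260 IDs, the median of the mean FPKM in HFD females was 4.59 with G75FHF5 (n = 5) and 0.0431 without it (n = 4). It was 0.0336 in CD females, 0.0326 in CD males and 0.0477 in HFD males. With G75FHF5, all 260 IDs had a mean of 0.5 FPKM or more in the HFD females, as 10 FPKM in 1 of 5 animals requires, and without it none did. A filter of at least 0.5 FPKM in at least 3 animals would keep 0 of the 260, as the limit in the other 17 animals requires. The groups could not be compared on the set with G75FHF5 counted, since 1 animal then carries the whole level. The paper named G75FHF5 and G73FHF3 as outliers and left both out of its comparisons of groups. In its code only G75FHF5 is called a clear outlier. G73FHF3 was removed there after HFD and CD females showed no differing genes with it included. Its median correlation with the other libraries was 0.968 here, against 0.701 for G75FHF5. G73FHF3 is kept here among the HFD females.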

How the data were processed

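RNA was extracted from the MRPVAT of 1 rat per library and sequenced as paired-end reads. After mapping with STAR 2.5 and read counting with HTSeq 0.6.1, the authors deposited FPKM values, 1 column per animal. For the genome build, the annotation and the FPKM formula, the entry is the same: not given in the sources used here.

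The deposited FPKM were used without change. The 260 IDs were found by the minimum of 10 FPKM and the limit of 0.5 FPKM, and no test was run, since 1 library stands against 17 and the values chose the IDs. Reads, gene lengths and library totals were recovered from the FPKM, whose values are whole multiples of 1 read. All 22851 IDs above 0 came out whole, within 1e-06 reads plus 3e-08 of the value, and 10032 IDs were at 0 in all libraries. For 1843 IDs seen in 1 library only, this holds by construction, and reads and length are known as their lowest whole ratio. For IDs seen in 2 libraries it is a weak check, since many divisors were tried. The reads summed to 99.99% of the recovered total in G75FHF5. The total of a reference library was sought only near the sum of its reads, so this agreement is in part built in. The recovery was also run on simulated counts drawn around the recovered reads, and the outcome is not reported here. Correlations used log2(FPKM + 0.5). Python 3.11.15, numpy 2.4.6, pandas 2.3.3, scipy 1.17.1 and matplotlib 3.10.9 were used.

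The IDs and the lists were chosen with earlier results of these data known. The plan had been to name the highest members by symbol and to count members on lists of tissue markers. The table holds IDs without gene names, so by the rule for that case the 2 members with the highest FPKM are named, and the marker lists were not used. No sequences are shown for the same reason. Alternative limits, scalings and libraries left out were planned. The 8-fold limit, the 72 IDs, the correlations and their alternatives were chosen after seeing the data.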

Additional observations from a re-analysis of the deposited data

Results flagged for a closer look

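Within a group of 4 or 5 animals, 3 values of G75FHF5 stood out from the other HFD females by the gap to the nearest animal relative to the range of the group. The 260 IDs had 27570 RPM against 63.7 in the nearest animal. The 669 IDs held 15.97% of the FPKM against 0.184% in the nearest. The median correlation with the other libraries was 0.701 against 0.945 in the nearest. The 260 and the 669 IDs were selected on G75FHF5, so their values follow from the selection. The flagged correlation was taken over all 18215 IDs, with the selected IDs included. Without the 669 and the 72 IDs it was 0.794 in G75FHF5, against 0.943 in the nearest HFD female, G73FHF2. In all, 20 group measures were looked at for such gaps. Chance flags about 1 in 20 of measures that do not rest on selected IDs, so this rate gives no weight to the 3 flagged values. No other animal stood out on the 20 measures.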

How the results depend on the processing

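The count of 260 IDs moved mainly with the limits. With a minimum of 5, 20 and 50 FPKM there were 403, 150 and 59 IDs, which held 1.92%, 1.49% and 1.02% of the FPKM and 3.02%, 2.32% and 1.55% of the reads. With a limit of 0, 0.1 and 1 FPKM in the other libraries there were 5, 79 and 368 IDs, with 0.0138%, 0.330% and 3.14% of the FPKM and 0.00239%, 0.565% and 5.04% of the reads (the first is a lower bound). Median-of-ratios scaling gave 268 IDs, 1.87% of the FPKM and 2.90% of the reads, and TPM gave 283, 1.37% and 2.20%. As a share of FPKM the set held 1.74%. With at least 20 reads in G75FHF5 there were at least 258 IDs, since the reads of the 2 IDs left out are lower bounds. Leaving out each of the 17 other libraries gave 260 to 270 IDs, 1.74% to 2.41% of the FPKM and 2.76% to 3.95% of the reads, the highest without the HFD male G74MHF2. With a minimum of 5 or 20 FPKM, a limit of 0.1 or 1 FPKM, or G75FHF5 left out, the rule still found 0 IDs in each other library. Of the alternatives added after seeing the data, a minimum of 5 and 20 FPKM gave 112 and 50 in place of 72 IDs. A limit of 0.1 and 1 FPKM gave 28 and 106, median-of-ratios scaling 70 and TPM 69. The alternatives tried on the 669 IDs gave 465 to 897. Leaving out a library gave 72 to 81 and 669 to 686. The TPM of ENSRNOG00000018039 and ENSRNOG00000012906 in G75FHF5 were 525 and 499.9. With a pseudocount of 0.1 FPKM the correlation of G75FHF5 was 0.679. The count of the 260 IDs on tissue marker lists was not run, because the IDs have no names here. No paired analysis was possible because these results come from no test. With 1 animal of this kind, spread between such libraries cannot be measured.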
